A study of Mus musculus with 18 samples.

Results

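Cytosolic ribosomal protein genes were followed through 18 single-colour microarrays of mouse skeletal muscle fibers separated into cytoplasm and nuclei. A gene was taken as a member when the array named it as Rpl or Rps with a number (with or without a closing a, l or x) or as Rplp0, Rplp1 or Rplp2, and when its description did not call it a pseudogene. This gave 79 gene names of the 35527 on the array, represented by 172 of its 55681 probes. The mice were wild-type CD1 females aged 3 months, with no treatment, and 3 leg muscles were sampled: the extensor digitorum longus (EDL) and the tibialis anterior (TA), which are fast, and the slow soleus. Each of the 6 groups (EDL cytoplasm, EDL nuclei, soleus cytoplasm, soleus nuclei, TA cytoplasm and TA nuclei) held 3 arrays, and each array carried RNA of a pool of 5 to 10 collagenase-isolated fibers from a single mouse or a pair of mice. In EDL and soleus, the pools with the same number came from the same mice in both muscles and both fractions. TA cytoplasm 1 and 2 shared a mouse with each other and with pool 2 of EDL and soleus, TA nuclei 1 and 2 each shared a mouse with the TA cytoplasm array of the same number, and TA nuclei 3 shared one with pool 1 of EDL and soleus.

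Ribosomal proteins are made in the cytoplasm, imported into the nucleus and assembled there with ribosomal RNA into the small (Rps) and large (Rpl) subunits, which are then exported. Their mRNAs are abundant and short, and most begin with a cytosine followed by a run of pyrimidines, the terminal oligopyrimidine (TOP) motif, through which the mTOR pathway and the RNA-binding protein Larp1 set their translation. Several of these genes hold small nucleolar RNAs (snoRNAs) in their introns. Skeletal muscle also expresses Rpl3l, a muscle form of Rpl3.

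The start of the transcript is shown for 5 members that hold a C and at least 4 further pyrimidines exactly there, and for Rpl3l, which does not. Such a run is the feature by which these mRNAs are known. The windows run from 10 bases before the RefSeq start to 20 bases from it on the GRCm38.p6 build. Capitals mark the pyrimidines counted from the C at the annotated start. In all 5 members the base before that C is also a pyrimidine.
Rps6, chr4:86857348-86857377, minus strand: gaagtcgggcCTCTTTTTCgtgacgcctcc
Rps10, chr17:27635225-27635254, minus strand: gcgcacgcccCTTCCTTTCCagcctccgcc
Rps18, chr17:33955646-33955675, minus strand: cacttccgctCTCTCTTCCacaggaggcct
Rps27, chr3:90213629-90213658, minus strand: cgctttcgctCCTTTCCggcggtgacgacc
Rplp2, chr7:141447641-141447670, plus strand: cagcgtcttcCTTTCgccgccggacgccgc
Rpl3l, chr17:24727816-24727845, plus strand: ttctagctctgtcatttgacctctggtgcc
Of the 58 members with a RefSeq promoter sequence (the first listed for each gene), 12 (20.7%) had a C and at least 4 further pyrimidines exactly at the annotated start, against 673 of 27025 genes (2.49%). When the run could begin within 5 bases of the start on either side, 26 members (44.8%) and 18.5% of all genes had it. CCGGAAG, searched on both strands of the whole promoter window, from 250 bases before the start to 50 after it, as were the motifs that follow, lay in 39.7% of the members' promoters and in 9.12% of all. GGGCGG lay in 56.9% against 35.9%, TATAAA in 8.62% against 14.2% and AAGATGGCG in 5.17% against 1.49%.

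The probe with the highest mean signal stood for each gene. For 78 of the 79 genes this probe was well above background on all 18 arrays, and no member probe that stood for a gene was saturated. Rpl39l, a paralog of Rpl39 known from testis, was well above background on 0 of 18 arrays and was not tested. On the arrays, the first principal component separated nuclei from cytoplasm and held 53.4% of the variance, with soleus cytoplasm 2 lying nearest to the nuclei among the cytoplasm arrays. In EDL and soleus, fraction could not be told apart from slide or scan day. Their cytoplasm arrays shared slide 1 and scan day 1, and their nuclei shared slide 2 and scan day 2. In TA, cytoplasm 1 lay on slide 1, cytoplasm 2 and all nuclei on slide 4 and cytoplasm 3 on slide 3, and slides 3 and 4 shared a scan day. The RNAs known to stay in the nucleus (Malat1, Neat1, Xist, Kcnq1ot1 and Meg3) were all higher in nuclei, with a median difference of 2.78 on the log2 scale. Of 5 genes listed as muscle fiber markers, Ckm (0.66) and Des (0.50) were called higher in nuclei. Myod1 (-1.61) and Myf6 (-0.82), both muscle transcription factors, were called lower, and Acta1 (0.21, adjusted p = 0.0508) was not called. The study counts Myod1 among the markers of satellite cells.

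The first question was where the mRNAs of ribosomal proteins lay. They were mostly higher in the nuclear fraction than in the cytoplasm, and by a small amount. Over the 3 muscles, 54 of 78 tested members were higher in nuclei and 3 were lower at an adjusted p of 0.05 (limma, Benjamini-Hochberg over 40541 probes tested), and 21 did not pass. The background was high: 30.2% of all gene names and 38.9% of those with a coding accession were called higher, and 40.3% and 29.7% were called lower. The share of members called higher was 69.2%. The median difference of the members was 0.47, a 1.39-fold higher normalized signal in nuclei, with the middle of the distribution between 0.34 and 0.59, while coding genes had a median of 0.18 and all genes one of -0.11. These values are relative to the rest of each array, since quantile normalization gives all arrays the same distribution, and a larger share of ribosomal protein mRNA in nuclei cannot be told apart from a smaller share of other RNA there. The size depended on the scaling and on the slides. With scaling to the 75th percentile the members' median was 0.29, 27 were called higher and 3 lower, and the share called higher (34.6%) was close to that of coding genes (34.4%). Without scaling, the median was 1.01 against 0.76 for coding genes. With slide as a random block, the median was 0.22 and 20 members were called, all higher in nuclei, while 19.3% of coding genes were called higher. When the 3 nuclear arrays of each muscle were merged into 1 sample, 9 members were called, all higher, with 18.2% of coding genes called higher.

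**Figure D1:**
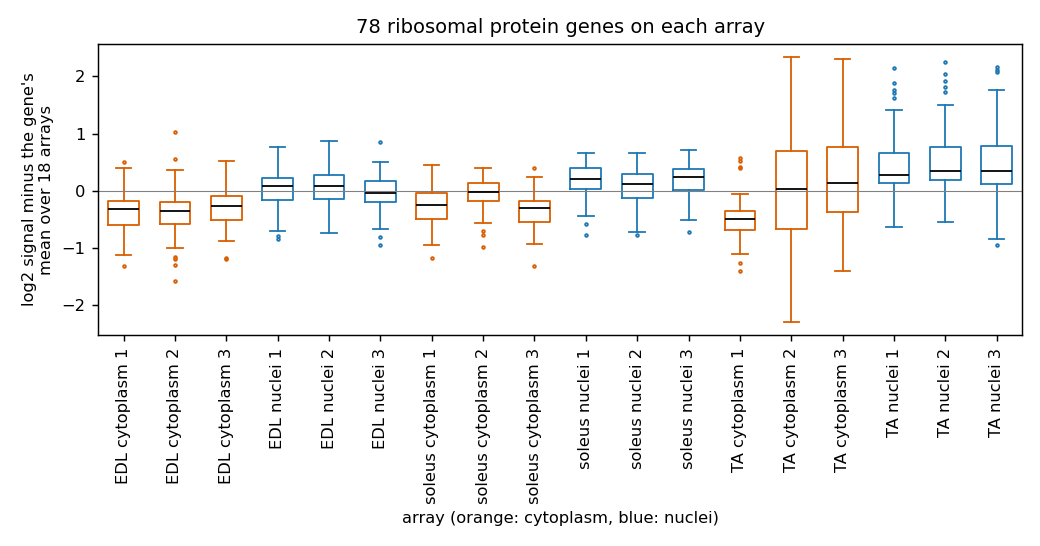
Each box gives the 78 tested ribosomal protein genes on 1 array (line: median, box: quartiles, whiskers: values within 1.5 box lengths, points: the rest), as log2 signal minus the gene's own mean over the 18 arrays. The EDL cytoplasm medians lie between -0.36 and -0.26 and the EDL nuclei medians between -0.03 and 0.08, while TA cytoplasm ranges from -0.49 (array 1) to 0.13 (array 3).

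Rpl7, a large-subunit protein, showed the largest called difference. Its log2 signal was 12.16, 12.13 and 12.31 in EDL cytoplasm and 12.96, 13.02 and 12.93 in EDL nuclei. In soleus it was 12.26, 12.60 and 12.22 in cytoplasm and 13.24, 13.01 and 13.28 in nuclei, and in TA 12.02, 11.81 and 12.04 in cytoplasm and 12.75, 12.84 and 12.78 in nuclei. No nuclear array overlapped with a cytoplasmic array of the same muscle, and soleus cytoplasm 2 was the highest of the cytoplasm arrays. The difference over the 3 muscles was 0.81 ± 0.09 (SE), adjusted p = 1.5e-06, a 1.75-fold higher signal. It was nearly the same in each muscle, with 0.77 in EDL, 0.82 in soleus and 0.84 in TA.

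Rpl9, Rps27, Rpl4 and Rpl3l followed Rpl7. Rpl4, whose protein lines the exit tunnel of the large subunit, had 11.93, 12.03 and 12.17 in EDL cytoplasm against 12.73, 12.80 and 12.66 in EDL nuclei, 12.13, 12.07 and 11.91 against 12.67, 12.75 and 12.87 in soleus, and 11.56, 11.01 and 11.29 against 12.14, 12.28 and 11.80 in TA. The groups did not overlap in any muscle, and the difference was 0.73 ± 0.10 (SE), adjusted p = 1.5e-05. Rpl9 differed by 0.76 ± 0.11. Rps27, a small-subunit protein with a zinc finger, differed by 0.75 ± 0.21. Its EDL cytoplasm values of 10.79, 10.74 and 10.84 were clearly below those of EDL nuclei, 11.68, 11.58 and 11.67. In TA, however, Rps27 was 10.75 on cytoplasm 1 but 12.52 and 12.72 on cytoplasm 2 and 3, which overlapped with the nuclei at 12.64, 12.77 and 12.49.

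Rpl3 and Rpl3l sit near the peptidyl transferase centre as alternative subunits, Rpl3l being the muscle form. Rpl3l was 10.31, 10.01 and 10.43 in EDL cytoplasm and 10.67, 10.77 and 10.76 in EDL nuclei, 10.36, 9.56 and 9.85 against 10.50, 10.57 and 10.55 in soleus, and 9.42, 7.61 and 8.50 against 9.40, 9.61 and 9.44 in TA. The nuclei lay above the cytoplasm in EDL and soleus but overlapped with TA cytoplasm 1, and the difference over the muscles was 0.69 ± 0.19 (adjusted p = 0.00438). Rpl3 itself differed by 0.45 ± 0.36 and was not called (adjusted p = 0.276). Its arrays within TA cytoplasm were far apart, at 9.96, 13.47 and 13.46.

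The 3 members called lower in nuclei were Rpl21, Rps3 and Rpl7a. Rpl21, a large-subunit protein, was 7.24, 8.22 and 7.45 in EDL cytoplasm and 6.82, 6.86 and 7.09 in EDL nuclei, 7.61, 6.74 and 7.59 against 6.87, 6.99 and 7.00 in soleus, and 7.71, 7.8 and 7.49 against 6.56, 6.64 and 6.72 in TA. The groups overlapped in soleus through cytoplasm 2, and the difference was -0.70 ± 0.15 (adjusted p = 0.00061). Only 1 of the 2 Rpl21 probes could be tested, with a mean level of 7.19, below that of most members. Rps3, a small-subunit protein at the mRNA entry site that also acts in DNA repair, was 13.52, 13.70 and 13.96 in EDL cytoplasm and 13.23, 13.18 and 13.04 in EDL nuclei. It differed by -0.50 ± 0.10 (adjusted p = 0.000417), and Rpl7a by -0.37 ± 0.11 (adjusted p = 0.00657), which turned to 0.39 without scaling. Without scaling, coding genes had a median of 0.76. For Rps3 and Rpl7a the direction depended on the probe, as described further on.

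**Figure D2:**
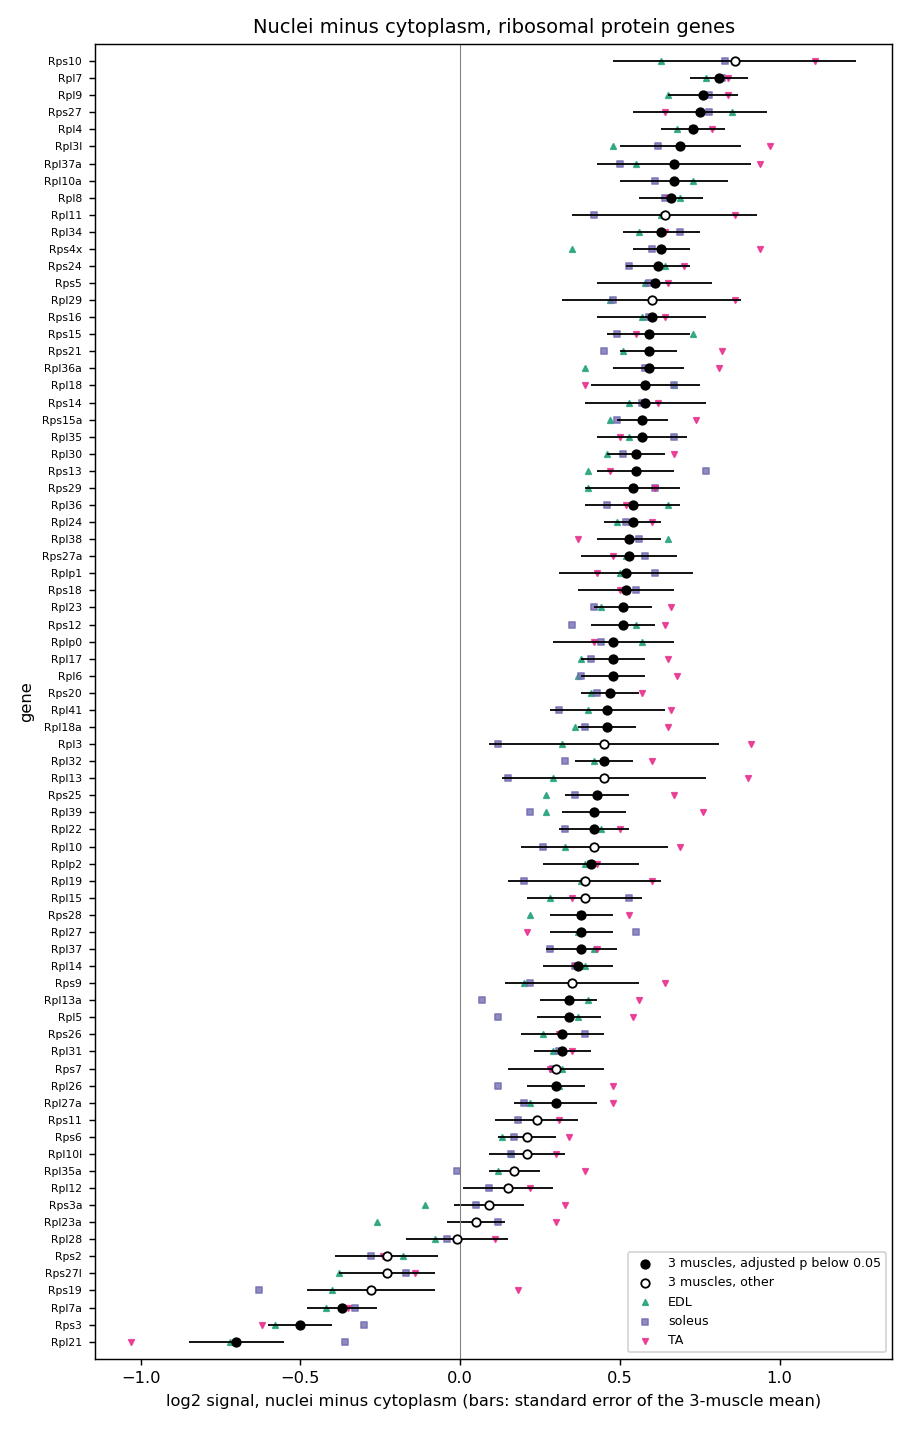
Each row is 1 tested gene, with the log2 difference nuclei minus cytoplasm over the 3 muscles (circle, bar: standard error, filled where the adjusted p was below 0.05) and the differences in EDL, soleus and TA (coloured symbols). The genes run from Rpl21 at -0.70 to Rps10 at 0.86, and most lie above 0; the few tested genes that are not reported by name are not drawn.

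By subunit, the small-subunit genes (30 members) had 20 called higher and 1 lower with a median difference of 0.53, and the large-subunit genes (45 tested of 46) had 31 higher and 2 lower with a median of 0.45. The 3 stalk genes Rplp0, Rplp1 and Rplp2, whose proteins recruit elongation factors to the ribosome, were all called higher, by 0.48 ± 0.19, 0.52 ± 0.21 and 0.41 ± 0.15, but with slide as a random block none was called and the values were 0.03, -0.01 and 0.08. Of the 4 paralogs whose names end in l, Rpl3l was called and Rpl39l was not tested. Rpl10l (0.21 ± 0.12, or -0.08 at the 75th percentile) and Rps27l (-0.23 ± 0.15, or 0.54 without scaling against a coding median of 0.76) were not called. Rpl10l is a testis form of Rpl10 with a dim signal here, between 5.15 and 6.09 over the arrays, and Rps27l is a p53-inducible relative of Rps27. The canonical partners Rpl39 and Rps27 were called higher (0.42 ± 0.10, or -0.28 with the mean of all probes of the name, and 0.75 ± 0.21), while the probe that stood for Rpl10 was not (0.42 ± 0.23, adjusted p = 0.11). The mean for Rpl39 took in a dim probe, with values missing on some cytoplasm arrays and on no nuclear array. The 2 tested Rpl39 probes gave 0.42 and 0.71, both called higher. Of the 3 Rpl10 probes, 2 were called higher.

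Among members with known roles outside translation, Rpl5, which binds 5S RNA and Mdm2 together with Rpl11, was higher in nuclei by 0.34 ± 0.10 (adjusted p = 0.00844). Rpl11 differed by 0.64 ± 0.29 and was not called (adjusted p = 0.0628), though 2 of its 3 probes were called higher. Rps6, the substrate of S6 kinase, differed by 0.21 ± 0.09 and was not called (adjusted p = 0.0595), with EDL cytoplasm at 11.95, 12.05 and 12.06 and EDL nuclei at 12.14, 12.14 and 12.16. Its groups did not overlap in EDL, yet the step was small, and 1 of the 3 Rps6 probes was called higher. Rps14, the gene of the 5q- syndrome, was called higher (0.58 ± 0.19), as was Rps27a, which is made as a fusion with ubiquitin (0.53 ± 0.15). Rps19, the gene most often mutated in Diamond-Blackfan anemia, was not called (-0.28 ± 0.20, adjusted p = 0.226, or 0.51 without scaling against a coding median of 0.76). In EDL its cytoplasm values of 9.32, 9.35 and 9.08 lay above the nuclei at 8.84, 8.90 and 8.83. In soleus 9.77, 9.20 and 9.56 lay above 8.87, 8.86 and 8.92. In TA the cytoplasm was 9.39, 11.24 and 11.11 and the nuclei 10.65, 10.69 and 10.96. The TA nuclei thus lay below cytoplasm 2 and 3 but above cytoplasm 1. The genes often used as references for quantitative PCR, Rpl13a, Rpl32 and Rps18, were all called higher in nuclei, by 0.34 ± 0.09, 0.45 ± 0.09 and 0.52 ± 0.15. Rpl36a differed by 0.59 ± 0.11 and Rps4x, the X-linked copy of Rps4, by 0.63 ± 0.09, both called.

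Members that hold an annotated snoRNA within the gene (29) had 18 called higher and 3 lower with a median difference of 0.42, and the others (49 tested of 50) had 36 higher and 0 lower with a median of 0.54. Rpl21 and Rps3 each held 2 snoRNAs, Rpl7a 4 and Rpl4, which was higher in nuclei, 5. The split of the lower calls rested on the probe chosen, since with the mean of all probes of a name Rps3 and Rpl7a turned to 0.55 and 0.30 and 0 members were called lower. No test was made of this split.

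**Figure D3:**
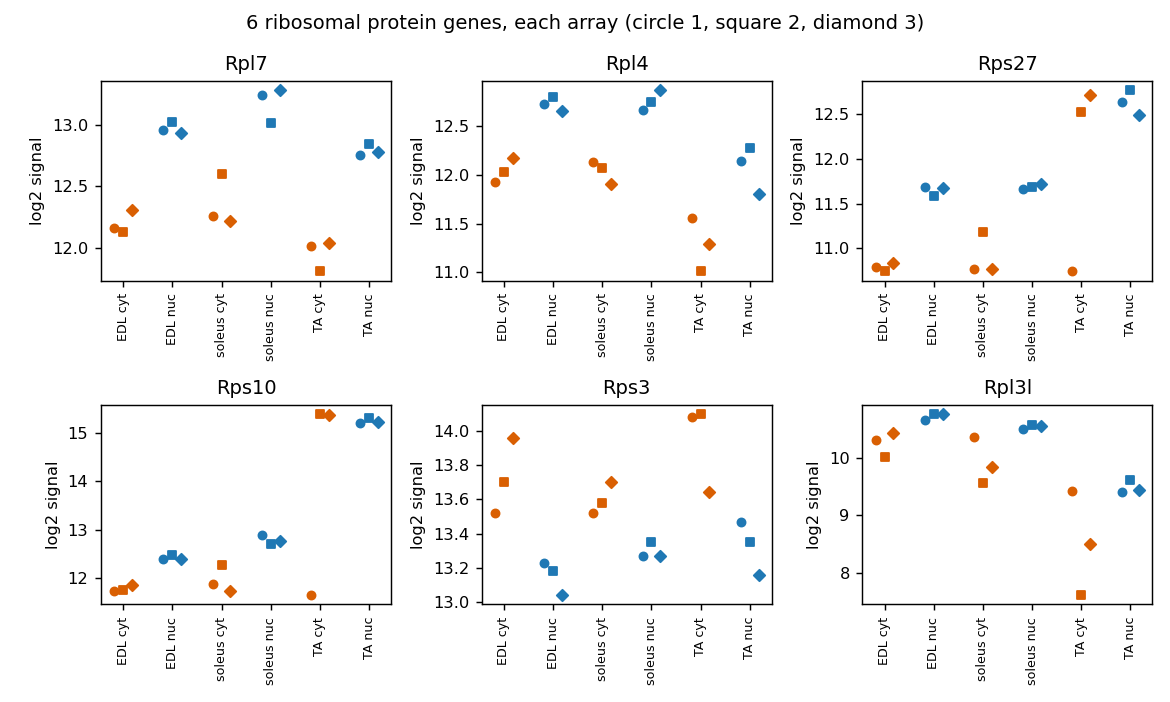
Log2 signal of Rpl7, Rpl4, Rps27, Rps10, Rps3 and Rpl3l on each of the 18 arrays (orange: cytoplasm, blue: nuclei, symbol: array number within the group). Rpl7 and Rpl4 keep the fractions apart in all 3 muscles, Rps3 runs the other way, and Rps27 and Rps10 are far higher on TA cytoplasm 2 and 3 than on TA cytoplasm 1.

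Within single muscles, the differences were similar in size but fewer passed. In EDL, 19 members were called higher and 2 lower, with a median difference of 0.40. The share of members called higher, 24.4%, was near that of coding genes, 23.9% higher and 20.6% lower. In soleus, 19 were higher and 0 lower, with a median of 0.42, against 21.6% and 16.8% of coding genes. In TA, 29 were higher and 2 lower (37.2% of members higher), with a median of 0.56, against 24.9% and 25% of coding genes. The shares of members called higher in EDL and soleus were thus close to the background. With 75th percentile scaling they fell to 8.97% and 1.28%, below the 20.4% and 18.2% of coding genes, and the soleus median fell to 0.08. By overlap of the arrays alone, with no test, all nuclear arrays lay above all cytoplasm arrays for 64 of 78 members in EDL (82.1%, against 31.4% of all gene names), for 50 in soleus (64.1% against 27.4%) and for 40 in TA (51.3% against 22.4%). All nuclear arrays lay below all cytoplasm arrays for 6 members in EDL (7.69%, against 37.4% of all gene names), 3 in soleus (3.85% against 30.4%) and 3 in TA (3.85% against 38.9%). These shares by overlap stand against all gene names, coding or not, whereas the calls above stand against coding genes. All groups shared an estimate of spread, to which TA cytoplasm contributed most: the median SD of the members between arrays was 0.37 in TA cytoplasm, 0.22 in soleus cytoplasm, 0.10 in EDL cytoplasm and 0.07 to 0.08 in the 3 nuclear groups. When the 12 EDL and soleus arrays were fitted alone, a choice made after seeing the data, 37 members were higher and 2 lower in EDL (coding background 28.7% and 21.9%). In soleus 38 were higher and 1 lower (26.3% and 18.1%). The 1 lower in soleus was Rps19 (-0.63 ± 0.17, adjusted p = 0.0118). Without TA cytoplasm 1, 49 members were called in EDL and 44 in soleus, in either direction, with 52.6% and 46.6% of coding genes called. Leaving out other single arrays gave as few as 9 members in EDL, without EDL nuclei 2 (36.9% of coding genes called), and 6 in soleus, without soleus cytoplasm 3 (27.9%). With slide as a random block, limma called 0 members in EDL and 0 in soleus (6 and 9 at an unadjusted p under 0.05).

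In that fit of EDL and soleus, Rps10, a small-subunit protein, was among the clear differences. Rps10 was 11.73, 11.76 and 11.86 in EDL cytoplasm and 12.40, 12.47 and 12.39 in EDL nuclei, and 11.88, 12.28 and 11.73 in soleus cytoplasm and 12.90, 12.71 and 12.77 in soleus nuclei. The nuclei were higher in both muscles without overlap, by 0.63 ± 0.16 (SE, adjusted p = 0.0083) in EDL and by 0.83 ± 0.16 (adjusted p = 0.00251) in soleus. Over the 3 muscles, Rps10 had the largest difference of all members (0.86 ± 0.38) but was not called (adjusted p = 0.055). Its other probe was called higher, by 0.54. In TA the probe that stood for Rps10 was 11.65 on cytoplasm 1, 15.39 and 15.36 on cytoplasm 2 and 3, and 15.20, 15.30 and 15.22 in nuclei. Rps10 was named after its values were seen.

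This jump within TA cytoplasm was not particular to Rps10. On the mean of cytoplasm 2 and 3, 28 of 78 members (35.9%) were more than 1 log2 unit above cytoplasm 1, against 9.71% of all genes, and 1 member (Rpl3l, -1.36) was more than 1 below, against 8.87%. The largest were Rps10 (3.73), Rpl3 (3.51), Rpl13 (3.1), Rpl11 (2.81), Rpl29 (2.63) and Rpl19 (2.30). The same members were also higher in TA nuclei than in the nuclei of EDL and soleus: the 28 had a median of 0.96 (lowest 0.49) and the other 50 one of -0.09. Across the 78 members the correlation of these shifts, which share no array, was r = 0.96 and rho = 0.94, given as a description. All these values are of the probe that stood for each gene, and other probes of a name did not always share the jump. On TA cytoplasm 1, 2 and 3, the other 2 Rpl11 probes were 9.88, 9.98 and 10.46, and 10.03, 9.86 and 10.22. Another Rps27 probe was 10.73, 12.42 and 12.46. The arrays that carried the higher signals were those of scan day 3 (slides 3 and 4), and the sample on slide 1 came from the same muscle and shared a mouse with cytoplasm 2. The GC content of the probe ran with the shift (rho = 0.47 over 78 members, medians of 50.8% and 45% for the 28 and the 50). The part of the slide, the scan day and the GC content in the shift was not tested, and muscle and slide cannot be told apart in the nuclei of TA.

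**Figure D4:**
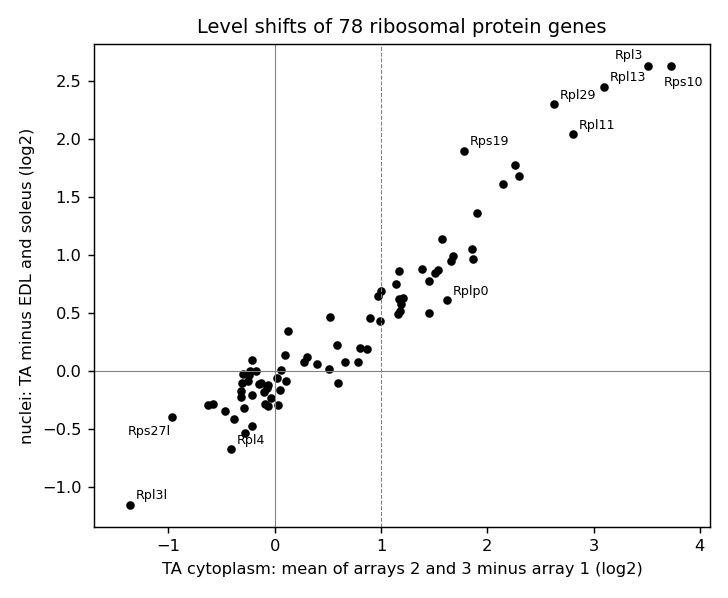
Each point is 1 of 78 ribosomal protein genes, by the probe that stood for it. The x axis gives the mean log2 signal of TA cytoplasm 2 and 3 (scan day 3) minus TA cytoplasm 1 (scan day 1), and the y axis the mean of TA nuclei minus that of EDL and soleus nuclei; 28 genes lie to the right of the dashed line at 1, and all 28 lie above 0 on the y axis.

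The TA difference therefore rested on which cytoplasm arrays were used. Over the 3 cytoplasm arrays, 73 of 78 members had a higher mean in TA nuclei and the median difference was 0.56. Within the scan day that held both fractions (cytoplasm 2 and 3), 58 of 78 were higher and the median was 0.20, and against cytoplasm 1 alone it was 0.78. On slide 4 alone, with cytoplasm 2 as its only cytoplasm array, the median was 0.28. In a fit of these 5 arrays, 24 members were called higher and 2 lower, with 24.7% and 21.5% of coding genes called. The members split as above: the 28 with the jump had a median of -0.02 within that scan day, and the other 50 had 0.55. That contrast uses the same cytoplasm arrays as the split and is given without a test. In EDL and soleus, which share no array with it, the medians were 0.48 and 0.47 for the 28 and 0.39 and 0.39 for the 50. Called higher in nuclei in each muscle, by the fit of EDL and soleus alone and by that of TA within the scan day, were 14 of 78 members and 13.1% of coding genes. Among the 14 were Rpl7 (0.86 ± 0.18, adjusted p = 0.0126), Rpl4 (0.93 ± 0.23, adjusted p = 0.0198) and Rpl9 (0.75 ± 0.19, adjusted p = 0.0209), with the TA values given here. For the stalk genes the same contrast gave -0.12 for Rplp0, -0.19 for Rplp1 and 0.05 for Rplp2.

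The second question was whether the nuclear excess of these mRNAs varied with the muscle. limma called 0 members in the interaction of muscle and fraction, where 1.35% of all gene names were called, and 0 members had an unadjusted p under 0.05. Without TA cytoplasm 1, 1 member (Rps10) was called. The smallest p-values belonged to Rps4x (adjusted p = 0.312), Rpl39 and Rpl23a. Rps4x differed by 0.35 in EDL, 0.60 in soleus and 0.94 in TA. Rpl39 differed by 0.27, 0.22 and 0.76, and Rpl23a by -0.26, 0.12 and 0.30. For Rpl23a, EDL nuclei (11.05, 11.07 and 11.10) lay below EDL cytoplasm (11.22, 11.44 and 11.35), while TA nuclei (10.95, 11.14 and 11.22) lay above TA cytoplasm (10.89, 10.63 and 10.89). That opposite direction did not pass the test of the interaction.

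The third question was whether ribosomal protein mRNAs differed between the slow soleus and the fast EDL within a fraction. limma called 0 members in nuclei, where 1.68% of all gene names were called, and 0 in cytoplasm, with 1.44% called. At an unadjusted p under 0.05 there were 2 members in nuclei and 0 in cytoplasm. The median differences, soleus minus EDL, were 0.14 in nuclei and 0.15 in cytoplasm. The closest to the threshold in nuclei was Rps13, with 0.62 ± 0.20 (adjusted p = 0.207), and then Rps4x, with 0.44 ± 0.16 (adjusted p = 0.272). Rps4x was 11.35, 11.28 and 11.32 in EDL nuclei and 11.78, 11.66 and 11.83 in soleus nuclei, without overlap. Without TA cytoplasm 1, Rps13 passed the threshold in nuclei.

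Probes for the same gene did not always give the same direction. Of 52 members with several tested probes, 45 had at least 1 probe called higher and none called lower, 3 had none called and 4 had probes called in opposite directions, among them Rps3, Rpl6 and Rpl7a. The median spread between the highest and the lowest probe of a gene was 0.23, and the largest, in Rpl6, was 1.90. The first 30 of the 60 bases of probes of these genes are shown with the position at which each begins in its transcript, because the sign differed between probes of 1 gene name; capitals mark where the Rpl7a probes at position 791 differ from each other.
Rpl6, position 819: tgaccagaaagctgtggatttgcagatttt
Rpl6, position 1154: ttagaggcacatacactgccatggctgcct
Rps3, position 824: gtcttggcgagctgcatctggaggcgattt
Rps3, position 1795: agaaagtgttaatgtgtagccctggctggc
Rpl7a, position 130: agaacttcggcactggacaggacatccagc
Rpl7a, position 791, first probe: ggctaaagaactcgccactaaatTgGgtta
Rpl7a, position 791, second probe: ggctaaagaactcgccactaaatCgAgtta

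The Rpl6 probe at position 1154 differed by -1.08 ± 0.13 (adjusted p = 2.46e-06), with EDL cytoplasm at 8.66, 8.98 and 9.09 and EDL nuclei at 7.93, 7.82 and 7.74, while the other 3 Rpl6 probes, all nearer the start, gave 0.39, 0.48 and 0.82. It lies at chr5:121659155-121659214 (mm9). For Rps3, the probe at position 1795 gave -0.50 and those at 763 and 824 gave 0.89 and 1.26. The Rps3 probe at 824 was 10.80, 10.50 and 10.73 in EDL cytoplasm against 11.69, 11.71 and 11.69 in nuclei, the reverse of the direction of the probe at 1795, which lies at chr7:106626430-106626489 (mm9). For Rpl7a, the probe at position 130 gave -0.37 and the 3 probes from position 762 on gave 0.26, 0.68 and 0.64. The pair at 791 differ from each other in 6 of 60 bases and gave 0.68 and 0.64. Whether these probes lie in the mature transcript of every isoform was not tested. With the mean of all probes of a name in place of the brightest, 64 members were called higher and 0 lower. Rps3 and Rpl7a turned to 0.55 and 0.30. The share of coding genes called in that fit was not computed, so these counts cannot be set against a background.

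**Figure D5:**
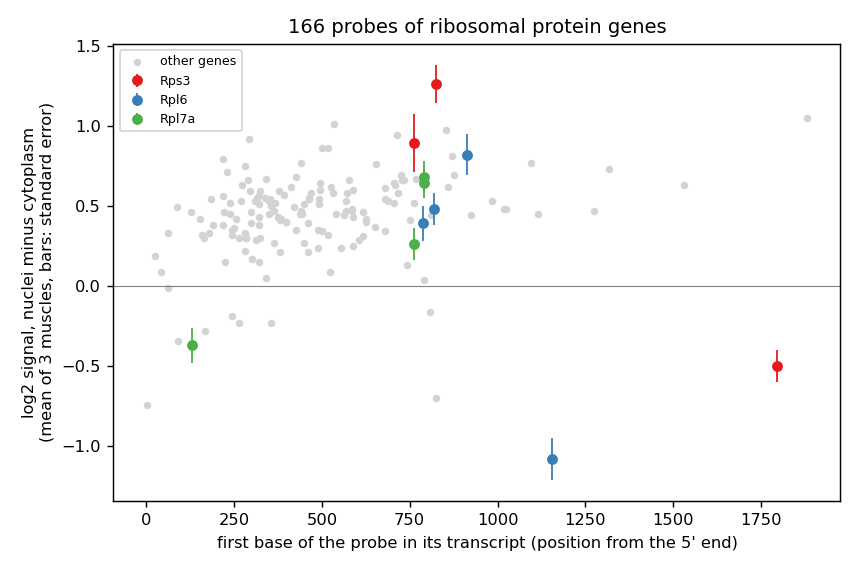
Each point is 1 of 166 tested probes of ribosomal protein genes, by the position of its first base in the transcript (x axis) and its log2 difference, nuclei minus cytoplasm, over the 3 muscles (y axis). Colours and bars (standard error) mark the probes of Rps3, Rpl6 and Rpl7a, and grey those of all other genes; the 7 probes that begin in the first 100 bases have a median of 0.09 and those at 701 to 1000 one of 0.63.

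The position of the probe ran with the difference across members. Probes that began in the first 100 bases (7) had a median of 0.09, those from 101 to 300 (36) one of 0.39, those from 301 to 500 (52) one of 0.48, those from 501 to 700 (30) one of 0.46, those from 701 to 1000 (31) one of 0.63 and those above 1000 (10) one of 0.48. Across the 166 probes, which share arrays and often genes, rho was 0.32 with position and -0.29 with GC content. Among all 19860 tested probes with a coding accession and a position, rho was 0.26 and -0.34, so the relation was also present outside the ribosomal protein genes. The first 100 bases had a median of -0.39 and the positions above 1000 one of 0.34 there.

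Ribosomal protein genes have many processed copies in the genome, which limits what a probe can tell. Of the 172 member probes, 47 shared a run of at least 30 bases with a probe of another gene name, among them the probes that stood for 23 genes, and 13 probes were placed by the array on another chromosome than that of the RefSeq gene, among them the probes that stood for Rpl12, Rps4x, Rps27 and Rps29. The signal of such a gene and of its copy cannot be told apart. The value table deposited by the authors, which covers 3668 probe names, held 73 member probes of 46 genes. Of these, 47 were called higher in nuclei and 0 lower, with a median of 0.41. Outside it, 73 and 5 of 93 tested member probes were called, with a median of 0.52. The study re-annotated the array's probes by whether they could bind long non-coding RNAs. Whether this decided which member probes the table holds was not tested. No share over all probes was computed for these counts.

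Ribosomal proteins that the naming rule misses were also higher. All 7 on the array (among them Rpsa, Fau, Gnb2l1, Rpl22l1, Rpl36al and Rpl7l1) were called higher in nuclei, with a median of 0.67. The counts of these lists stand against a background of 38.9% of coding genes called higher, with a median of 0.18. Among 16 elongation factors and other genes with TOP mRNAs, 8 were higher, 1 lower and 7 not called, with a median of 0.34. The elongation factors Eef1d (0.56 ± 0.09), Eef2 (0.46 ± 0.13) and Eef1a1 (0.43 ± 0.09) were called, and the initiation factor subunit Eif3e was the lower one (-0.85 ± 0.27). Eef1a2, the form of adult muscle, was not called (0.16 ± 0.15). Of 15 tested genes of ribosome biogenesis, 6 were higher, 0 lower and 9 not called, with a median of 0.17, including 1.62 ± 0.30 for Nop58, a snoRNP core protein. Of 10 regulators of translation, 8 were higher and 0 lower, with a median of 0.63, led by Rptor (1.64 ± 0.31), Myc (1.41 ± 0.17) and the S6 kinase gene Rps6kb1 (1.14 ± 0.11). Larp1 was higher by 0.70 ± 0.18.

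Markers of cells other than fibers moved with the fractions. All 4 endothelial markers were higher in nuclei (median 1.20), as were all 4 of fibroblasts (0.89) and all 4 of Schwann cells (1.20), while 3 of 4 macrophage markers were lower (median -0.68). The summed signal of the endothelial markers was 1910 to 2180 in EDL cytoplasm and 3980 to 4210 in EDL nuclei, 1830 to 3620 and 3710 to 3970 in soleus, and 927 to 1660 and 4490 to 5080 in TA. That of the fibroblast markers was 7340 to 24100 over the cytoplasm arrays and 18200 to 39700 over the nuclei, that of the Schwann markers 240 to 631 and 649 to 1880, and that of the macrophage markers 2890 to 7030 and 2530 to 2910. Of 3 tested erythroid markers, 1 was called lower, the hemoglobin gene Hba-a1 (-0.51, adjusted p = 0.00442), and the median was -0.38. Their summed signal was 13200 to 19900 in EDL cytoplasm and 10800 to 11200 in EDL nuclei, 12300 to 27300 and 6170 to 6700 in soleus, and 8120 to 10400 and 11700 to 12500 in TA. Hbb-b1, a beta globin gene, differed by -0.79 in EDL, -1.68 in soleus and 1.32 in TA. None of these markers was below background on all arrays. Of the satellite cell markers 2 of 4 could be tested, and none was called. Myod1, which the study counts among such markers but which was listed here with the fiber markers, was called lower in nuclei (-1.61). The part of these cells in the difference of the ribosomal protein genes was not tested, and in bulk samples fewer cells of a type cannot be told apart from less RNA per cell.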

How the data were processed

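RNA of 18 fiber pools was hybridised to single-colour Agilent mouse arrays, and spot intensities were read with Agilent Feature Extraction 10.7.3.1, per the file headers. The deposited processed intensity is background-subtracted and detrended within each array. As the authors did, values were quantile normalized on the log2 scale. Of 59305 spots, 3671 were controls and were left out. Spots without positive and significant signal, or marked as outliers, were set to missing. Spots of the same probe name were averaged. The authors' series table, used only as an alternative, holds 3668 probe names, with column medians of 52.5 to 53 and a correlation with the scanner values of at least 0.999.

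Limma 3.58.1 in R 4.3.3 (with statmod 1.5.0) fitted 6 group means over all 18 arrays with empirical Bayes moderation, in place of the SAM test of the study, which was not run. Probes with at least 2 of 3 values in each group compared were tested, 2-sided, with Benjamini-Hochberg adjustment over all probes tested, and called at 0.05. All adjusted p-values are from these limma fits, and ± gives the standard error. The brightest member probe on average stood for each gene. Of the 172 member probes, 164 were matched to RefSeq by accession, 7 by symbol and 1 by synonym. Promoters are RefSeq's on GRCm38.p6, and array coordinates are on mm9. Figures were drawn with Python 3.11.15 and matplotlib 3.10.9.

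The members and lists were chosen with earlier results of these data known. Genes were named by role, as the 5 largest called differences in each direction, as the 3 smallest p-values of the interaction, as the 3 largest called differences between soleus and EDL, and where probes were called in opposite directions. In EDL and soleus, equal numbers mark the same mice, and deviations of these samples correlated between -0.11 and 0.10. On simulated data with 200 changed probes of 35528, a log2 change of 2 was recovered in 98.5% over the muscles and in 84% in EDL, 87.5% in soleus and 84.5% in TA, and a change of 0.5 in 14.5% over the muscles and 0% in each muscle. In the data far more was called over the muscles (30.2% of all gene names higher and 40.3% lower). The adjustment is then less strict, so the simulated shares do not give the recovery in these data. The number of arrays limits the precision. Some genes are not reported here by name, but they remain in all counts and medians.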

Additional observations from a re-analysis of the deposited data

How the results depend on the processing

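Over the 3 muscles, 57 members were called, and 52 to 65 when single arrays were left out. With 75th percentile scaling, 30 were called over the muscles, 9 in EDL and 2 in soleus, and the median was 0.29. The medians by muscle were 0.27 in EDL, 0.08 in soleus and 0.52 in TA. Members called higher were 8.97% in EDL, 1.28% in soleus and 39.7% in TA, against 20.4%, 18.2% and 23.2% of coding genes. Without scaling, 52 were called in EDL (44% of coding genes called higher), 72 in soleus (65.8%), 3 in the interaction (Rpl21, Rpl23a and Rps3) and 1 between soleus and EDL nuclei (Rps4x), and the median was 1.01. Normexp background correction gave 37 in EDL, 1 in the interaction (Rps21) and 1 in nuclei (Rps4x). Requiring signal well above background gave 34 in EDL and 37 in soleus. Slide as a random block gave 20 over the muscles, 0 in EDL and 0 in soleus. When the 3 nuclear arrays of a muscle were merged into 1 sample, 9 were called over the muscles and 0 in EDL, 0 in soleus and 0 in TA. The authors' table, which holds fewer members, gave 24, 5, 6 and 13, and 1 in nuclei (Rps13). The fit of the 12 EDL and soleus arrays, added after seeing the data, gave 39 in EDL and 39 in soleus. For normexp, for signal well above background and for the authors' table, the share of coding genes called was not computed. Those counts cannot be set against a background. The causes of these changes were not tested.

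Leaving out single arrays gave 9 to 49 calls in EDL, 6 to 44 in soleus, 26 to 60 in TA, 0 to 1 in the interaction, 0 to 1 between soleus and EDL nuclei and 0 to 0 in cytoplasm. In EDL the count was 49 without TA cytoplasm 1, 11 without EDL cytoplasm 2, and 11, 9 and 13 without EDL nuclei 1, 2 and 3. In soleus it was 44 without TA cytoplasm 1, 10, 30 and 6 without soleus cytoplasm 1, 2 and 3, and 9, 12 and 9 without soleus nuclei 1, 2 and 3. In TA it was 60 without TA cytoplasm 3. The share of coding genes called was computed only without TA cytoplasm 1, EDL nuclei 2 or soleus cytoplasm 3. In EDL it was 52.6% without TA cytoplasm 1 and 36.9% without EDL nuclei 2, so it moved with the member count. The other counts with 1 array left out cannot be set against a background. The replicate block, which pairs the samples of the same mice in EDL and soleus, gave 60 over the muscles, 17 in EDL, 17 in soleus, 32 in TA and 0 in the other comparisons, and moved no count by more than 1.5 times.

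Among 30 named genes, 13 of 855 values turned direction. These were Rpl10l (-0.08) with 75th percentile scaling, Rps19 (0.51), Rps27l (0.54) and Rpl7a (0.39) without scaling, Rplp1 (-0.01), Rpl11 (-0.18), Rpl3 (-0.57), Rpl10 (-0.20) and Rps27l (0.08) with slide as a random block, Rpl39 (-0.28), Rps3 (0.55) and Rpl7a (0.30) with the mean of all probes, and Rpl23a (-0.07) in the authors' table. Without scaling, coding genes had a median of 0.76. The mean for Rpl39 took in a dim probe, with values missing on some cytoplasm arrays and on no nuclear array. The 2 tested Rpl39 probes gave 0.42 and 0.71. At the depth of these arrays, 1 member (Rpl39l) was not well above background on any array.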
